A study of Arabidopsis thaliana with 4 samples.

Results

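Distant SMXL6 peaks are the binding sites whose midpoint lies outside every nuclear protein-coding gene and more than 1000 bp from both ends of each of them. SMXL6 was located by chromatin immunoprecipitation and sequencing with an anti-HA antibody in whole Arabidopsis thaliana seedlings aged 2 weeks. The SMXL6-HA group carried SMXL6 fused to an HA tag under the SMXL6 promoter in the smxl6/7/8 triple mutant, and the control group was smxl6/7/8 without that transgene, so both groups shared the triple mutation. There were 2 libraries in each group. Whole seedlings mix many cell types, so strong binding in few cells and weak binding in many cannot be told apart. The authors called peaks for each replicate pair, and the resulting peak lists are named list 1 and list 2 after their pair. Of the 1442 peaks in list 2, 296 (20.5%) met the rule. They were chosen by their positions in list 2, set against the gene ends of the RefSeq table. Their number, distances and list 2 scores are therefore descriptions, and list 1 is the measurement that the rule did not use.

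SMXL6 belongs to a family of repressors that are degraded when strigolactone, a plant hormone that restrains shoot branching, is perceived. These proteins act with TOPLESS corepressors, and SMXL6 can also bind DNA itself. Arabidopsis has a compact genome in which most known control elements lie just upstream of a gene, though control elements several kilobases away are known at some genes. Intergenic sequence also holds genes for long non-coding RNAs and microRNAs.

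The score of a peak is the authors' own value. Its scale is not stated, and it served here to rank and describe peaks within a list. A list 1 score given with a distant peak is that of the highest-scoring list 1 peak over it. That list 1 peak can be wider, and can be centred near or inside a coding gene. Read depth is unknown. Nothing in the labels says that replicates were grown or harvested separately, so differences between the lists may reflect technical spread alone. Peaks of a list are not replicates of a condition, so the shares below are given side by side with no test. A peak "below" a gene has lower coordinates than it, and one "above" has higher coordinates, because the gene table gives no strand. A coding gene named with a peak flanks it on either side and is not always the nearer of its flanking genes. Coordinates are those of the deposited peaks on TAIR10, counted from 1, and distances run from the midpoint of the peak unless an edge is named.

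The 15 highest distant peaks had KNAT3, BRC1, BLH1, HB5, GATA4, MYB94, HB-12 and WRKY22, which encode transcription factors, and ACR8, ARK3, EXL3, CYP78A9 and NIA1, which do not, among their flanking genes. Each of these 15 overlapped a list 1 peak, with list 1 ranks of 320 or better. Of the 10 highest peaks of list 2 as a whole, 3 were distant. The highest spanned chromosome 1, 23894215 to 23896499, with a score of 1800.11 (rank 4) and a list 1 score of 1239.49 (rank 3). It lay 3164 bp above AT1G64380 and 4637 bp below AT1G64385, and covered the whole of the long non-coding RNA gene AT1G08673.

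The next, at chromosome 5, 8729847 to 8732648, scored 1744.93 (rank 5). Its flanks were AT5G25210, 5430 bp away, and KNAT3, 4697 bp away, which encodes a homeodomain factor of KNOX class II. In list 1 this site was covered by adjacent peaks with scores of 878.19 and 913.3. It was the single distant peak with 2 list 1 overlaps. After it, a peak at chromosome 3, 6380157 to 6381829, scored 1051.69 (rank 9) and 942.69 in list 1 (rank 5). It lay 2296 bp below BRC1, the TCP factor that holds back the outgrowth of axillary buds.

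The next peak, at chromosome 1, 4229207 to 4231842, scored 967.15 and 911.44 in list 1. Its midpoint lay 1313 bp above ACR8, a gene for an ACT-domain repeat protein, and 3193 bp below ARK3, an armadillo-repeat kinesin gene, and its edge reached into ACR8. After it, a peak at chromosome 2, 15098763 to 15100823, scored 904.29 and 815.53 in list 1, and lay 7378 bp above BLH1, which encodes a BEL1-like homeodomain factor that pairs with KNOX factors, and 4923 bp below EDA12. The first 5 peaks thus stood at ranks 3 to 14 in both lists.

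The peak at HB5 was high in list 2, and the list 1 peak over it ranked lower. At chromosome 5, 26099904 to 26101252, it scored 799.83 (rank 18) in list 2. It lay 1240 bp below HB5, a homeodomain-leucine zipper (HD-ZIP) gene of class I that responds to abscisic acid. The list 1 peak over it scored 185.75 (rank 320), was 6716 bp wide and was centred inside a coding gene. The following peak, at chromosome 1, 7339374 to 7342872, scored 715.18 and 433.57 in list 1, between AT1G21000, 1671 bp away, and AT1G21010, 5033 bp away. Next came a peak of 636.28 (458.62 in list 1), 5876 bp below GATA4, a GATA zinc finger gene, and a peak of 618.02 (323.25 in list 1), 5788 bp above MYB94, an activator of cuticular wax synthesis. The nearer flanks of these peaks were AT3G60520, at 4558 bp, and AT3G47610, at 2016 bp.

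The remaining members of the 15 had scores between 534.15 and 591.96 in list 2 and between 249.64 and 921.76 in list 1. A peak of 591.96 (356.7 in list 1) lay 2424 bp above EXL3, an EXORDIUM-like gene. A peak of 581.98 (249.64 in list 1) lay between CYP78A9, a cytochrome P450 gene that promotes fruit and seed growth, and HB-12, a drought-responsive HD-ZIP class I gene, at 2755 bp and 3441 bp. Peaks of 544.13 (629.59 in list 1) and 540.58 (529.33 in list 1) had their nearest ends at AT5G56850 and AT4G17670. The peak at WRKY22, a gene of defence signalling, scored 538.28 (567.29 in list 1) and lay 1904 bp above it. That peak was nearer to AT4G01245, at 1438 bp. The last, with 534.15 (921.76 in list 1), lay between AT1G77750, 1265 bp away, and NIA1, a nitrate reductase gene, 2729 bp away.

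**Figure D1:**
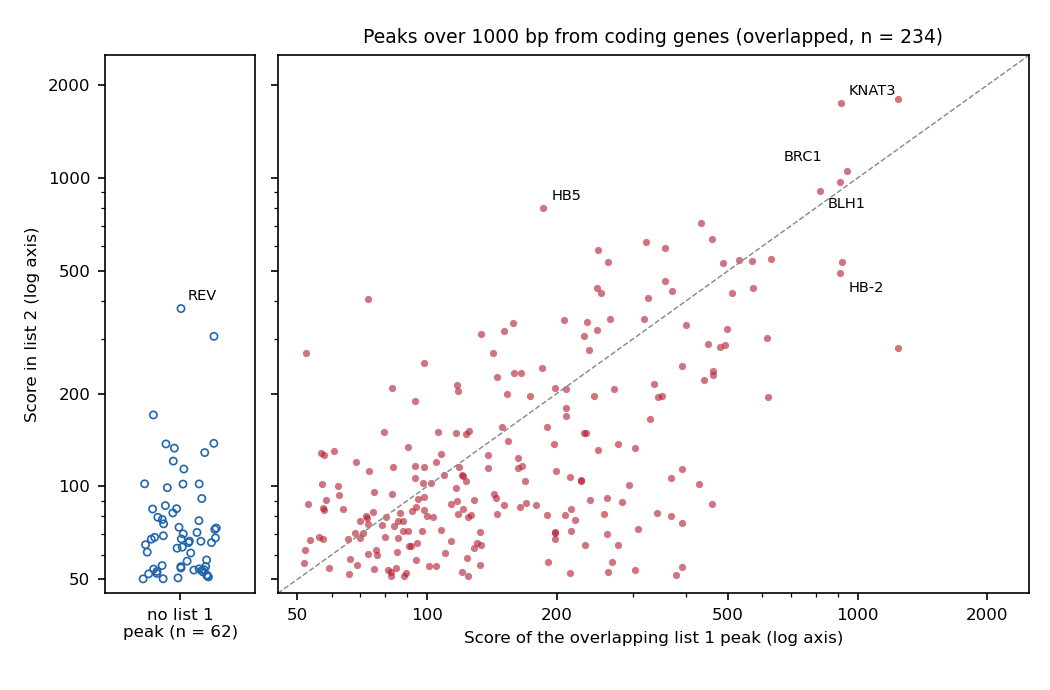
Scores of the 296 distant peaks in list 2 (vertical, log axis) against the highest-scoring overlapping list 1 peak (horizontal, log axis). Each point is a peak, open circles at left are the 62 with no list 1 peak, and the dashed line marks equal scores. Points labelled KNAT3, BRC1 and BLH1 sit high on both axes, HB5 is at 799.83 against 185.75, and the highest open circle, below REV, is at 377.2.

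Genes of strigolactone signalling and shoot branching were looked up next. Of 22 genes on that list, 4 flanked a distant peak, namely BRC1, HB53, NCED3 and MAX2. Among all 27444 nuclear coding genes 515 did (1.88%). Of the 18 listed genes beside a gap over 2000 bp the 4 made up 22.2%, against 4.79% of all coding genes beside such gaps. BRC1 is described above and in the map of its locus. HB53, an HD-ZIP class I gene that acts downstream of BRC1 in buds, had a peak 2870 bp below it with a score of 75 and a list 1 score of 78.49. NCED3, the abscisic acid synthesis gene downstream of BRC1 and HB53, had a peak with a score of 64.68 and a list 1 score of 233.27, but it stood 12154 bp above the gene and nearer to CID9, at 3370 bp. MAX2, the F-box gene through which strigolactone targets SMXL proteins for degradation, had a peak 3732 bp below it with a score of 79.41 and none in list 1, where LSH10 was the nearer gene. Scores at HB53, NCED3 and MAX2 were thus below the list 2 median of distant peaks, and BRC1 stood apart from them. In list 1 the median score of the partners of distant peaks was 142.75. The list 1 peak at NCED3 was above it, with 233.27, and that at HB53 was below it.

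List 1 held most of the distant sites. Of the 296 peaks, 234 (79.1%) overlapped a list 1 peak by at least 1 bp, against 74.7% of all list 2 peaks. The shares were 78.8% for the 572 peaks outside genes but within 1000 bp and 68.3% for the 574 inside genes. Requiring overlap over 50% of both peaks left 96 (32.4%) of the distant peaks. The median width of overlapped distant peaks was 1137.5 bp, and that of their list 1 partners was 2823 bp. In 217 of 234 cases (92.7%) the distant peak lay wholly within list 1 peaks. The highest-scoring list 1 partner was itself centred more than 1000 bp from coding genes for 174 peaks, near a gene for 45 and inside one for 15. Applied to list 1 instead, the rule chose 343 peaks, 192 of them (56.0%) overlapped by list 2.

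The share overlapped followed the score. In the lowest quartile of list 2 scores it was 59.4% of 64 distant peaks, 62.7% of 134 near peaks and 49.7% of 163 peaks inside genes. The highest quartile gave 95.9% of 74 distant peaks, 96.2% of 159 near peaks and 95.3% of 128 peaks inside genes. In the quartiles between, it was 73.8% and 85.1% of distant peaks, against 68.5% and 83.2% of near peaks and 60.5% and 74.0% of peaks inside genes. Their median score was 88.9, against 96.7 for near peaks, 82.7 inside genes and 89.2 for all list 2 peaks. Scores of at least 100 were held by 132 (44.6%), with 44.7% over the whole list, so the share was near the background. Among the 100 highest peaks of list 2 there were 27 distant ones, which is 9.12% of their number, against 6.82% of near peaks and 5.92% of those inside genes.

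**Figure D2:**
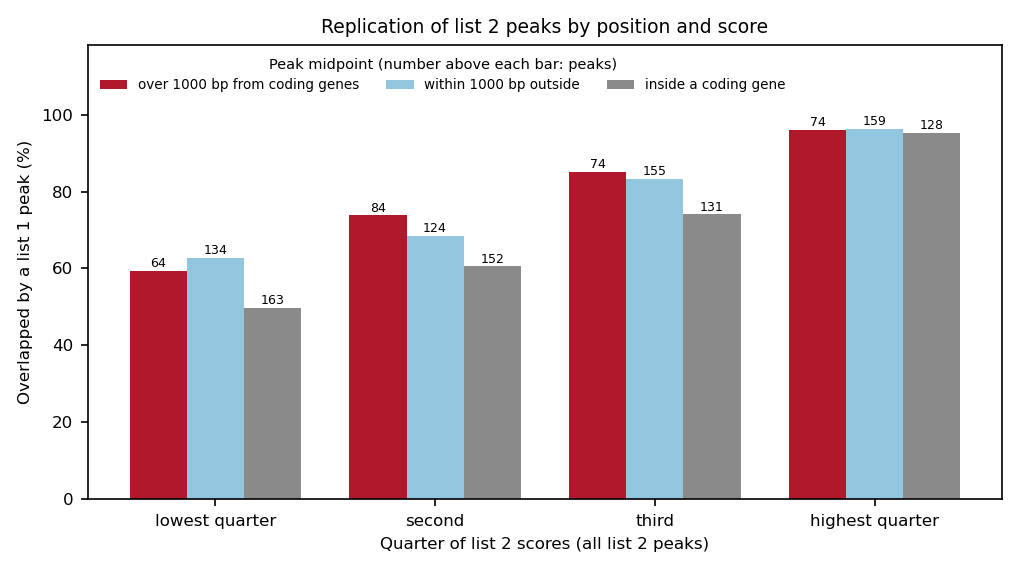
Share of list 2 peaks overlapped by a list 1 peak (vertical, percent) in each quartile of list 2 scores (horizontal), for distant peaks, near peaks and peaks inside genes, with the number of peaks above each bar. Distant peaks go from 59.4% in the lowest quartile to 95.9% in the highest, and near peaks from 62.7% to 96.2%.

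Within the 234 overlapped peaks, scores of the lists were related (Spearman's rho 0.53, and Pearson's r 0.64 on log10 scores). This is a description over peaks that share 1 library pair per list, and 12 list 1 peaks were the best partner of more than 1 distant peak. The widest departures ran in both directions. A peak between GIS, a zinc finger gene of trichome development, and AT3G58090 scored 405.32 in list 2 and 73 in list 1. A peak between AT3G15090 and HCF243 scored 51.67 in list 2, and the list 1 peak over it scored 377.89. That list 1 peak was 5856 bp wide and centred inside a coding gene, so its score is not that of the distant site alone. These examples were chosen after their values were seen.

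The 62 distant peaks without a list 1 partner had a median score of 67.5, against 102 for the 234 with one, and 12 of them reached a score of 100. List 1 peaks lay within 1000 bp of 11 of them and farther than 10000 bp from 30. The highest unmatched score, 377.2 (rank 98), belonged to chromosome 5, 24389915 to 24391262. That peak lay 6393 bp below REV, an HD-ZIP class III gene that sets leaf polarity and vascular pattern, and 3284 bp above AT5G60680. The next, with 306.64 (rank 147), stood in the neighbouring gap, 1475 bp below AT5G60680, and a list 2 peak of 75.48 between them lay over the lower end of that gene. No list 1 peak came closer than 43742 bp to the peak below REV and 49884 bp to its neighbour. All 3 list 2 peaks of this locus thus lacked a list 1 partner.

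Other unmatched peaks were weaker. They scored 170.5 between RD21A, a cysteine protease gene, and AT1G47130, 137.95 between TTG1, the WD40 regulator of trichomes and anthocyanin, and DMR6, and 137.32 at 1234 bp below EXO, a brassinosteroid-responsive gene. The nearest list 1 peak was 893273 bp away for the peak at RD21A, 3024 bp for that at TTG1 and 52061 bp for that at EXO, which lies in a pericentromere.

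**Figure D3:**
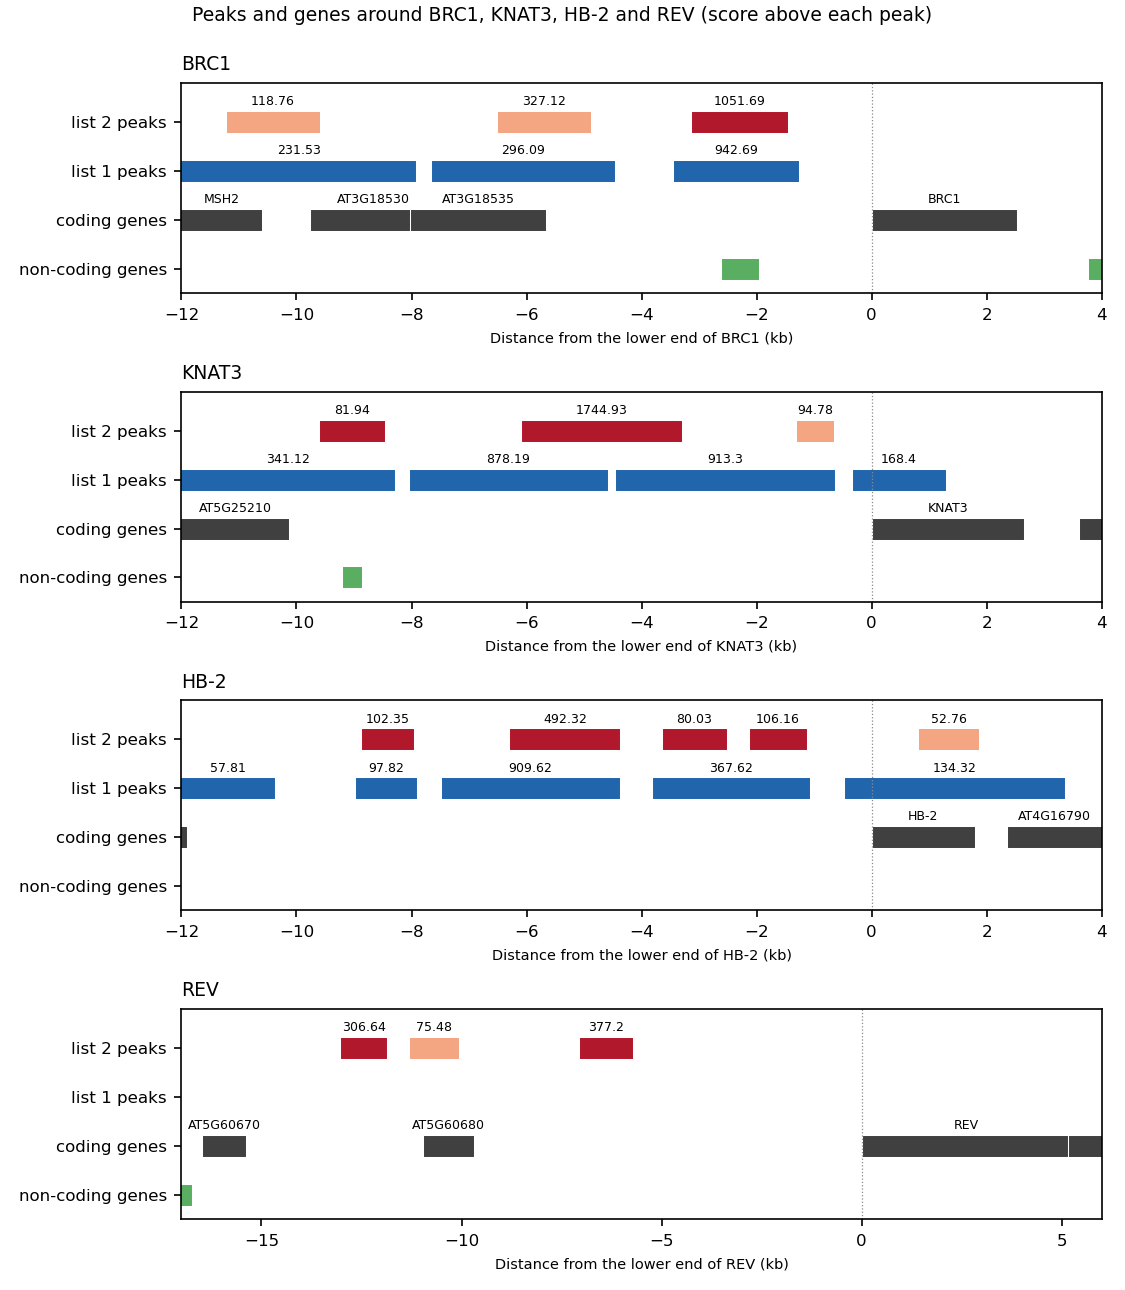
Peaks of list 2 (dark red where distant, pale orange otherwise), peaks of list 1 (blue), coding genes (dark grey) and non-coding genes (green) around BRC1, KNAT3, HB-2 and REV, with the score above each peak and the distance in kb from the lower end of the named gene on the horizontal axis. BRC1 and KNAT3 have a high peak in both lists, HB-2 has 4 distant peaks below it, and the REV locus has 3 list 2 peaks and none in list 1.

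Distant peaks lay in chromosome arms at a density between those of the other classes. Sequence more than 1000 bp from coding genes made up 25.5% of the nuclear chromosomes, but about as much of it lay in pericentromeres, taken as 2 Mb either side of each centromere, as in the arms. In the arms, 288 distant peaks fell on 14.9 Mb, or 19.3 per Mb. Near sequence held 25.4 peaks per Mb and genes 9.18. List 1 gave 22.4, 27.4 and 13.2 per Mb for the same classes. By chromosome the arms held between 17.3 distant peaks per Mb on chromosome 4 and 21.3 on chromosome 1. The other 8 distant peaks lay in pericentromeres, and 4 of them overlapped list 1, among them a peak of 312.21 (133.12 in list 1) above AT5G28491 and one of 140.89 (154.33 in list 1) 3537 bp above NIA2, the other nitrate reductase gene.

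**Figure D4:**
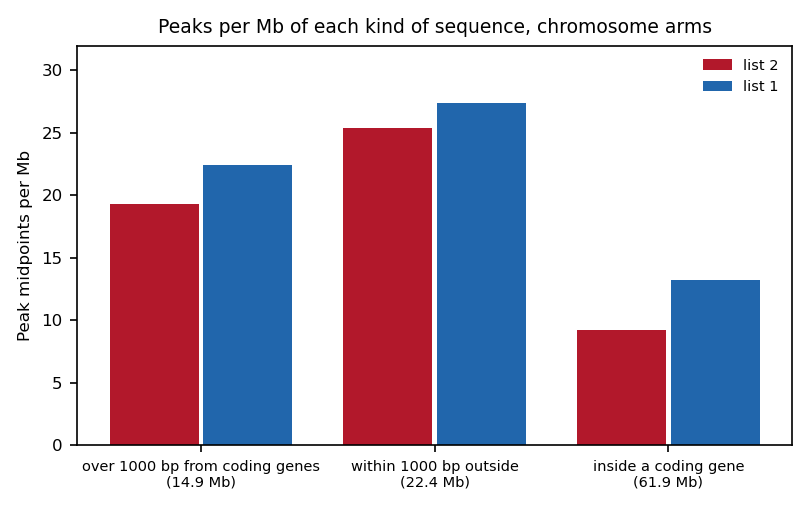
Peak midpoints per Mb of sequence (vertical) in chromosome arms, for sequence over 1000 bp from coding genes, within 1000 bp outside them, and inside them, in list 2 (red) and list 1 (blue). Distant sequence held 19.3 and 22.4 peaks per Mb, between near sequence and genes in both lists.

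Distances were mostly short. The median from midpoint to the nearest coding gene was 1734.5 bp, with quartiles of 1261 bp and 2558.25 bp. Between 1000 and 1500 bp there were 123 peaks, and beyond 5000 bp there were 9. List 1 overlapped 79.7% of those 123 and 7 of those 9, with 73.5% to 82.4% in the classes between, so overlap showed no steady course with distance. Counted from its edges, a peak lay wholly beyond 1000 bp in 170 cases, its edge came within 1000 bp of a gene in 123, and 3 wide peaks reached into a coding gene. These 3 were the peaks at ACR8, AT1G21000 and AT1G77750.

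The 5 peaks farthest from any coding gene had low to moderate scores. The farthest, 9550 bp above AT5G35405 in a pericentromere, scored 75.64 and had no list 1 partner. The next was a peak of 62.24 (52.18 in list 1) 9502 bp above AT1G38131, in the widest gap that held a distant peak, 247023 bp. A peak of 88.62 (170.05 in list 1) lay 8288 bp below AT5G19100, one of 55.12 (100.86 in list 1) 6144 bp below AT3G26539, and one of 114.3 (390.66 in list 1) 5714 bp above SAHH2, a gene of the methylation cycle. At the limit itself, the 3 peaks just inside the rule lay 1003 bp from PPa3 (81.89 and 86.34 in list 1), 1005 bp from DIN10 (84.16 and 98.35) and 1007 bp from RSZ21 (438.64 and 571.39). Just outside it were peaks 986 bp from TPS11 (223.47 and 282.93 in list 1), 983 bp from AT5G40470 (275.49 and 176.05) and 983 bp from KNAT3 (94.78 and 913.3, the list 1 peak that also covered the distant peak there). Peaks on both sides of the limit were thus present in both lists.

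The 296 peaks fell into 263 gaps between neighbouring coding genes, 4.02% of the 6538 gaps over 2000 bp, which are those that can hold such a midpoint. The gaps that held a peak had a median length of 5547 bp, against 3742.5 bp for all wide gaps. Of gaps up to 3000 bp, 0.888% of 2252 held a peak. The share was 7.74% of 1422 for gaps above 5000 and up to 10000 bp, and 2.55% of 274 for gaps over 20000 bp. In 30 gaps there was more than 1 distant peak, and 63 peaks shared their gap in this way.

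The fullest gap lay between AT4G16770 and HB-2, also called ATHB2, an HD-ZIP class II gene that is induced by shade. It was 11907 bp long and held 4 distant peaks, at 8420, 5333, 3086 and 1627 bp below HB-2. Their list 2 scores were 102.35, 492.32, 80.03 and 106.16 in that order. In list 1 the farther pair had peaks of their own, with 97.82 and 909.62, and the nearer pair was covered by a single peak of 367.62. HB-2 therefore had a chain of peaks along most of its lower flank in both lists.

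The gap between NRT1:2, a nitrate transporter gene, and AT1G69860 held 3 distant peaks, with scores of 58.18, 59.9 and 108.16, and list 1 peaks of 66.29, 76.56 and 120.85 covered them. Among gaps with 2 distant peaks, the highest scores lay between AT1G64380 and AT1G64385 (281.17 and 1800.11), between AT5G25210 and KNAT3 (81.94 and 1744.93) and between AT3G60520 and GATA4 (87.96 and 636.28). A list 1 peak overlapped every distant peak in these gaps, and at AT1G64380 and GATA4 a single one (1239.49 and 458.62) overlapped both. For most distant peaks no list 2 peak was centred in or within 1000 bp of the nearest gene. Other distant peaks beside that gene are left out of this count by the rule. Another midpoint lay in or within 1000 bp of that gene for 63 peaks (21.3%), and for 233 there was none.

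Some distant peaks lay over non-coding genes. Of the 296, 68 (23.0%) overlapped at least 1 non-coding gene or pseudogene by 1 bp or more, with 16.8% over all list 2 peaks, 19.9% for near peaks and 10.5% for those inside genes. The midpoint itself lay in such a gene for 42 distant peaks (14.2%), against 7.28% of all list 2 peaks, 6.47% of near peaks and 4.53% of those inside genes. Long non-coding RNA genes were the largest class, with 69 genes under 54 peaks, and 52 of the 68 peaks overlapped list 1 (76.5%). The median score was 86.1 over non-coding genes and 90.9 elsewhere. Loci without a symbol in the gene table are named by locus code.

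The peak below BRC1 covered the whole of AT3G03705, a long non-coding RNA gene of 657 bp, and its midpoint lay in it. That below GATA4 overlapped the neighbours AT3G09415, AT3G09425 and AT3G09435. At SEP3, a MADS-box gene of floral organ identity, a peak of 441.1 (248.69 in list 1) was centred in AT1G05863, 2659 bp above SEP3. That peak was nearer to AT1G24265, at 1609 bp. Peaks below ZFP8, a zinc finger gene, and below AT3G13980 scored 333.58 (399.94 in list 1) and 283.66 (479.37 in list 1) and covered AT2G09320 and AT3G02805. A peak 1051 bp below MYB102, a stress-responsive MYB gene, scored 236.1 (461.8 in list 1) and was centred in AT4G21437, a transcribed pseudogene of 591 bp. The peak 1126 bp above HAT2, an HD-ZIP class II gene, scored 221.92 (439.97 in list 1) and covered AT5G06985 and AT5G06995. Its list 1 partner was 5813 bp wide and centred inside a coding gene. The others named by score covered AT5G09170 (203.55, and 117.79 in list 1) or touched 40 bp of AT5G09035 (226.46, and 145.6 in list 1). Each of these peaks was thus present in both lists.

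Genes for small RNAs were few. MIR167a, the precursor of a microRNA that directs cleavage of the auxin response factor transcripts ARF6 and ARF8, lay wholly under a peak at chromosome 3, 8107533 to 8108389. It scored 128.75 in list 2, and the nearest list 1 peak ended 189 bp away, so no list 1 peak lay over the gene. MIR168a, the precursor of the microRNA that acts on AGO1, the main effector of microRNA silencing, lay under a peak of 52.59, which list 1 overlapped with 89.43. TAS3, the source of small RNAs against auxin response factor transcripts, was touched at both ends, by peaks of 60.57 and 75.51 that covered 31.2% and 45.9% of the gene. A single list 1 peak of 72.77 spanned both. TAS3 was picked out after its values were seen. The other types under distant peaks were 6 miscellaneous RNA genes, 3 tRNA genes, 4 pseudogenes, the ncRNA gene AT3G03695 and the transcribed pseudogene at MYB102.

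Flanking genes were then counted by gene list. Because a gene without a wide gap cannot flank such a peak, each share was set beside that of the 10761 coding genes next to a gap over 2000 bp, of which 515 (4.79%) flanked a distant peak. Gap length was not matched. The share of gaps that held a peak was 0.888% for gaps up to 3000 bp and 7.74% for those above 5000 and up to 10000 bp. How far gap length accounts for the shares of the lists was not tested. The share of flanking genes was above 4.79% for 13 of the 19 lists and at or below it for 6. Homeobox genes stood at 13 of 51 genes beside wide gaps (25.5%), gibberellin genes at 5 of 19 (26.3%) and auxin transport genes at 3 of 11 (27.3%). The NAC list stood at 1 of 53, and the SPL list and that of the ZAT and IDD zinc finger families at 0 of 8 and 0 of 14. The lists were matched on gene symbols and miss family members with other names, so their counts are of the listed symbols and not of whole families.

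**Figure D5:**
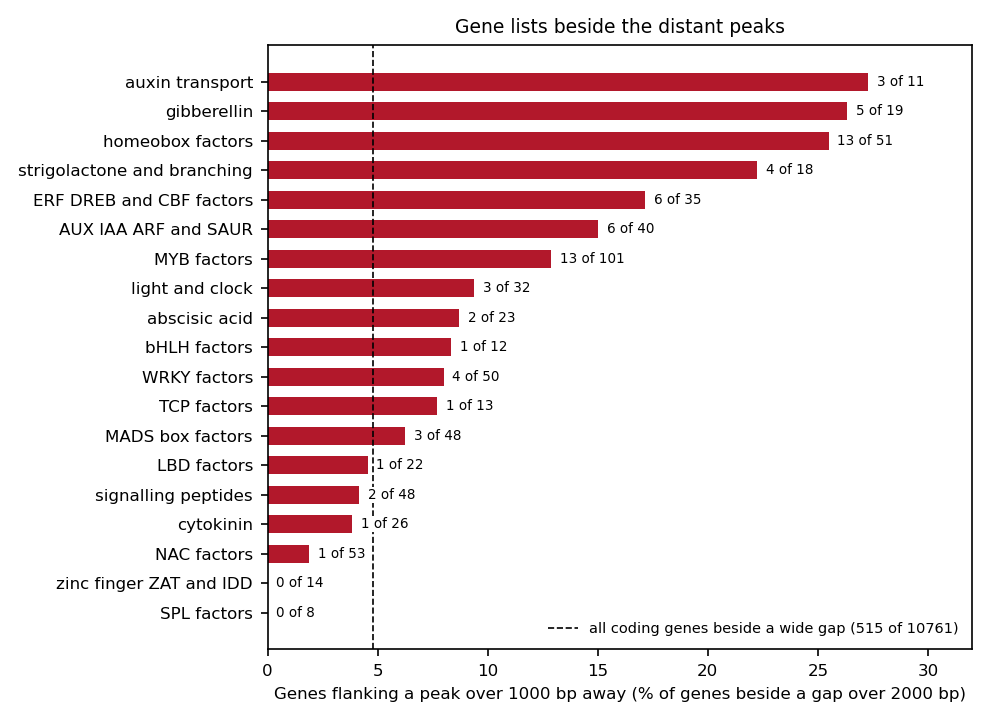
Share of genes beside a gap over 2000 bp that flank a distant peak (horizontal, percent) for each gene list matched on symbols (vertical), with counts at the bars. The dashed line is the share of all such coding genes, 4.79%, and homeobox genes stand at 25.5%.

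Genes of the homeobox list flanked 20 distant peaks, of which list 1 overlapped 19, against 79.1% of all distant peaks. The 2 shares were not matched on score, which overlap followed, and some of the 20 shared a list 1 partner. Other homeodomain genes, seen among the flanking genes after the counts were made, are outside these numbers. They include BLH1 and REV, described above, and BEL1, beside a peak of 84.8 (215.88 in list 1). The highest-scoring peak without a list 1 partner, below REV, is thus not among the 20. The list of 64 symbols includes 2 haemoglobin genes, and neither flanked a peak, which leaves 13 of 62. By subfamily, grouped after their values were seen, 6 of 10 HD-ZIP class II genes, 5 of 17 HD-ZIP class I genes and 2 of 4 KNOX class II genes were flanking. These counts are out of all genes of each subfamily, beside a wide gap or not. Of all coding genes, 1.88% flanked a distant peak. HD-ZIP class II proteins repress transcription in the shade response and in leaf patterning. Besides HB-2 and HAT2 these were HAT22, HAT3, HAT1 and HAT14. HAT22 had peaks 5903 and 3539 bp below it with scores of 286.59 and 116.58 (492.08 and 166.21 in list 1), in a gap shared with MYB87. HAT3 had a peak 3563 bp above it with 194.23 (618.35 in list 1), which was nearer to SHOT1. HAT1 had one of 67.91 (85.47 in list 1) at 1178 bp, and HAT14 one of 50.18 with no list 1 partner. HB4, HAT9, HB17 and HB18 flanked none.

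Among KNOX class II genes, KNAT4 had peaks on both sides. The peak 1091 bp above it scored 206.95 (271.11 in list 1), and those below it, shared with MYB64, scored 123.65 at 1228 bp and 84.46 at 4429 bp (162.77 and 63.62 in list 1). Of the HD-ZIP class I genes not yet named, HB6 had a peak of 149.48 (116.7 in list 1) at 5159 bp and HB16 one of 89.5 (117.44 in list 1) at 1611 bp.

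Gibberellin genes beside distant peaks included 3 of the 5 DELLA repressor genes, a grouping also made after their values were seen. The share over all coding genes, beside a wide gap or not, was 1.88%. DELLA proteins hold back growth until gibberellin brings about their degradation. RGL1 had a peak 4053 bp below it with 277.36 (238.17 in list 1). RGA1 had peaks at 1512 and 5650 bp above it, with 87.46 (53.02 in list 1) and 53.97, and the farther one had no list 1 partner. GAI had a peak 2095 bp below it with 71.72 (216.44 in list 1, for a peak of 6267 bp centred inside a coding gene). Of the metabolic genes, GA20OX3, a biosynthetic oxidase, had a peak of 155.82 (149.02 in list 1) at 1776 bp. GA2OX2, which inactivates gibberellin, was the upper flank of a peak of 424.6 (510.81 in list 1), but stood 16281 bp from it, and nMAT1 was nearer at 4791 bp.

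Auxin genes were split between transport and response. PID, a kinase gene of polar auxin transport, had a peak 1741 bp above it with 84.53 (121.17 in list 1). PID2, a relative of PID, had one of 68.1 with no list 1 partner. Of the auxin response list, 6 of 40 genes beside wide gaps were flanking (15%, against 4.79% of all such genes). ARF10 had the highest, 303.03 (617.14 in list 1), at 5962 bp and on the far side of a peak nearer to GATA13. IAA18, an Aux/IAA repressor gene, followed with 114.55 (138.81 in list 1) at 2083 bp. IAA2 and IAA7 stood on either side of a peak of 71.6 (97.1 in list 1). The Aux/IAA genes SHY2 and AXR3, which the list misses under these symbols and which were noticed after their values were seen, likewise stood on either side of a peak of 67.87 (69.76 in list 1).

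Of the MYB list, 12.9% of genes beside wide gaps were flanking, 13 in all. MYB114 and MYB90, related activators of anthocyanin synthesis, flanked a peak of 531.4 (486.55 in list 1), 1769 bp above MYB114 and 3219 bp below MYB90. MYB90 had another peak 1532 bp above it, with 54.94 and no list 1 partner. MYB94 and MYB87 are given above. Of the ERF and DREB list, 6 of 35 were flanking (17.1%), each beside at least 1 peak that list 1 overlapped. Examples of related genes outside the list went both ways, and they are not a count of the family members that the list misses. CEJ1 and PUCHI stood beside peaks of 101.97 and 99.07 without a list 1 partner. AP2, ANT and RAV2 stood beside peaks of 131.32, 77.67 and 71.51, with 249.56, 220.33 and 87.97 in list 1. ERF8, which encodes a repressor, had 242.24 (184.54 in list 1) at 3129 bp, ERF15 101.05 (293.72), RAP2.7 90.51 (238.63) and CRF10 83.89 (57.51). The peak at RAP2.7 was nearer to RAD51B, at 1568 bp.

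The shares of 6 further lists lay between 6.25% and 9.38% of genes beside wide gaps, against 4.79% of all such genes. The WRKY list counted 4 of 50, WRKY22, WRKY48 (106.9, and 215.28 in list 1), WRKY23 (102.2, and 57.05 in list 1) and WRKY40 (70.89, and 67.99 in list 1). The WRKY48 peak of 106.9 was nearer to PFD3, at 1484 bp. The MADS-box list counted 3 of 48, SEP3, the floral identity gene AP1 (81.23, and 145.71 in list 1) and AGL58 (55.54, and 132.84 in list 1), and PI, a floral MADS-box gene outside the list, lay 1044 bp from the peak at DIN10. Of 32 light and clock genes 3 were flanking, RVE2 (148.68, and 234.13 in list 1), the clock repressor PRR5 (112.31, and 73.49 in list 1) and BBX12 (90.14, and 58.22 in list 1). The abscisic acid list counted 2 of 23, namely NCED3 and the phosphatase gene HAI1 (130.72, and 60.82 in list 1). PIF7, a shade regulator and 1 of 12 genes of the bHLH list, had 102.1 in list 2 and 428.03 in list 1 at 1241 bp. The bHLH genes SPT (81.5, and 256.91 in list 1), UPB1 (102.2, and 57.05 in list 1) and BIM1 (115.65 and 92.32, both under a list 1 peak of 98.19) also flanked distant peaks but are missed by the list under these symbols. The peak at UPB1 is the one given for WRKY23, which was nearer to it, at 1341 bp against 2991 bp. BRC1 was the flanking gene among 13 of the TCP list.

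In 3 further lists the single flanking gene that the symbols matched stood beside a peak without a list 1 partner. They were CKX3, a cytokinin oxidase gene (91.38), LBD18, a gene of lateral root growth (113.87), and ANAC087 of the NAC list (67.59). The peaks at CKX3 and LBD18 were nearer to AT5G56980, at 1587 bp, and AHL22, at 1813 bp. The peptide genes CLE5 and CLE7 stood on either side of a peak of 67.45 that was also found in list 2 alone. Genes of these families that the symbols missed did stand beside distant peaks found in both lists. Among NAC genes these were LOV1 (169.24, and 209.91 in list 1), NAP (104.42, and 169.04 in list 1) and NST1 (94.31, and 143.34 in list 1). The peaks at LOV1 and NST1 were nearer to AT2G02440, at 2607 bp, and AT2G46780, at 1449 bp. Among the missed cytokinin genes were the receptor gene WOL and the response regulator gene RR3 (94.78, and 83.06 in list 1). WOL stood 13915 bp from a peak of 318.57 (150.69 in list 1), which was nearer to EXGT-A3, at 1549 bp. These NAC and cytokinin genes, like SPT, UPB1, BIM1, CEJ1, PUCHI, AP2, ANT, RAV2 and PI, were picked out after their values were seen.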

How the data were processed

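Anti-HA ChIP-seq libraries came from 2 SMXL6-HA and 2 control samples. The submitters' processing notes name TAIR10 and the tools BWA 0.7.10-r789, SAMtools and MACS 1.4.2, without settings. Per the labels, each deposited peak list belongs to an SMXL6-HA library and the control of the same number. Each row gives a start and an end in base pairs and a score, the authors' own value.

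Genes came from a RefSeq table of TAIR10.1, whose coordinates were taken as those of TAIR10, with 37899 nuclear genes, 27444 of them coding. It holds no strand or sequence, so the planned motif description was not run. Midpoints, distances and overlaps were computed with Python 3.11.15 and NumPy 2.4.6, and checked on simulated positions. Wide peaks make an overlap of 1 bp easier. Pericentromeres rest on approximate centromere centres from general knowledge.

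The peaks and gene lists were chosen with earlier results of these data known. Named peaks were the 15 highest, the 5 highest without list 1 overlap, the 5 farthest, those over microRNA genes, up to 10 over other non-coding genes, those of the 5 fullest gaps, the 3 nearest to the limit on each side, those beside branching genes, and up to 4 flanking genes of each other list by score. Members of the HD-ZIP, KNOX and DELLA subfamilies, and the pericentromeric peaks, were named after their values were seen. The result for 1 flanking gene of the auxin transport list is not reported here.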

Additional observations from a re-analysis of the deposited data

How the results depend on the processing

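Of 39 alternatives, 23 left a value within a limit set for it and 16 moved it beyond. The limit was a fixed ratio for the number, a 95% binomial interval for shares and the standard deviation of both lists' values for medians. These limits are yardsticks and not errors, because peaks of a list are not replicates. For the medians, the switch to list 1 was bound to count as a move. The number of distant peaks, 296, became 470 with a limit of 500 bp, 124 with 2000 bp, 170 with distance taken from the peak edge and 132 with scores of at least 100. The share overlapped by list 1, 79.1%, was 90.9% with scores of at least 100, 53.4% when list 1 peaks needed a score of at least 100 and 32.4% with reciprocal overlap of 50%. These shares were computed for distant peaks alone. The median score was 195.74 with scores of at least 100, by construction. The share over a non-coding gene was 14.2% when the midpoint had to lie in the gene, against 7.28% of all list 2 peaks. The median distance was 1229 bp, 2762 bp and 2392 bp with limits of 500 bp, 2000 bp and the edge rule. Without replicate 2, the rule on list 1 gave 343 peaks, 56.0% overlapped by list 2, a median score of 99.3, 28.3% over a non-coding gene and a median distance of 1887 bp. Leaving out pericentromeres, or letting pseudogenes keep a peak out, moved none of the 5 values. The table has no class of transposable element genes, so these entered only where listed as pseudogenes. No paired analysis was possible because each replicate pair gave 1 peak list and no result came from a test. Depth is unknown, so a site without a list 1 peak is not shown to lack binding in pair 1.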
